A study of Mus musculus with 15 samples.

Results

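Dusp1, Dusp2 and Dusp6 encode phosphatases that switch off MAP kinases, and Zfp36 encodes the mRNA-destabilising protein tristetraprolin. Gadd45a, Gadd45b and Gadd45g encode small stress proteins that bind kinases upstream of the MAP kinases. These 7 genes were followed in dendritic cells (DC) over a time course of inflammatory stimulation. The members were all probe sets whose single gene symbol in the platform annotation was 1 of the 7, which gave 9 of the 12422 non-control probe sets on the array and 7 of the 8251 genes with a single symbol. Dusp6 and Gadd45b had a pair of probe sets each, and the one with the highest mean over the 15 arrays was taken as the main one.

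The DC were grown for 4 days from bone marrow of female non-obese diabetic (NOD) mice, in which autoimmune diabetes arises spontaneously, aged 6 to 8 weeks. GM4 DC were grown in 1 ng/ml GM-CSF plus 1 ng/ml interleukin-4 (IL-4) and purified on 14.5% metrizamide. GM DC were grown in 1 ng/ml GM-CSF alone and purified on 16% metrizamide, so that IL-4 and the density of the gradient cannot be told apart. Both were stimulated with 10 µg/ml lipopolysaccharide (LPS) plus 50 ng/ml interferon-γ, and RNA was taken at 0, 6 and 20 h. GM4 DC had 3, 3 and 2 arrays at these times and GM DC had 3, 2 and 2, which the series design text calls biological replicates. In the series title the GM4 cells are termed therapeutic and the GM cells non therapeutic, and the comparisons ask how the same stimulus acts on each. No culture kept for 6 or 20 h without LPS and interferon-γ was analysed here, so that time in culture and the stimulus cannot be told apart. The growth label of GM4 DC 0 h replicate 1 gives neither doses nor gradient, and the source names of the GM4 DC 0 h arrays mention the stimulus although their titles say 0 h.

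Signals were on a linear scale, and every array had been scaled by the authors to the same 2% trimmed mean of 150.1. Replicates correlated at 0.967 or above. All 11 dendritic cell markers on the list were measured. As 2 examples, H2-Aa averaged at least 2741 and Cd74 at least 4968 in every group, and the levels of the others are not given singly. The summed signal of the 11 in GM4 DC was 27199 to 35813 at 0 h, 25194 to 34431 at 6 h and 20576 to 22857 at 20 h. In GM DC it was 18448 to 25770, 25972 to 35762 and 15336 to 21298. RNA quality measures moved with the culture: the 3′ to 5′ ratio of the Gapdh control probe sets was 1.04 to 1.48 in GM4 DC and 1.18 to 2.46 in GM DC, with the highest value in GM DC 0 h replicate 3. The same ratio for actin was 1.13 to 1.45 in GM4 DC and 1.43 to 2.26 in GM DC. The mean log2 signal of the hybridisation controls did not overlap between the cultures, at 8.39 to 8.99 on GM4 DC arrays and 9.02 to 10.28 on GM DC arrays, so that array quality and culture cannot be fully told apart. The summed signal of 10 measured monocyte and macrophage markers was 4694 to 5208 in GM4 DC against 13601 to 16446 in GM DC at 0 h, 5025 to 6467 against 18361 to 25333 at 6 h, and 8861 to 9082 against 15525 to 16537 at 20 h. None of them was listed at 0. Of those markers 8 were lower in GM4 DC at 0 h, all 10 at 6 h and 4 at 20 h. Over all probe sets 7.12%, 4.74% and 1.56% were lower at these times. The part of RNA quality or of these cells in the differences between GM4 and GM DC was not tested beyond the values given beside them. In these bulk samples fewer cells of a type and less RNA per cell cannot be told apart.

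Toll-like receptors signal through the MAP kinases ERK, p38 and JNK, and each kinase is inactivated when a dual-specificity phosphatase removes phosphate from its activation loop. Many of these phosphatases are themselves induced by the kinases they inactivate, which makes them negative feedback regulators. Tristetraprolin binds AU-rich elements in cytokine mRNAs such as Tnf and recruits the deadenylation machinery, and Gadd45 proteins bind and activate the kinase MEKK4 upstream of p38 and JNK, while Gadd45b can also restrain JNK through MKK7.

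The RefSeq promoters of 5 members are shown because these genes followed different courses after the stimulus. Dusp1, Zfp36 and Gadd45b were higher at 6 h in GM DC, Gadd45g was highest at 20 h, and Dusp6 was lower at 6 h. Each window holds the 250 bases before the annotated start on build GRCm38.p6, written 5′ to 3′ along the gene, with capitals marking the motifs found on either strand. The windows are chr17:26508473-26508722 on the minus strand for Dusp1, chr7:28379229-28379478 on the minus strand for Zfp36, chr10:80929841-80930090 on the plus strand for Gadd45b, chr13:51846425-51846674 on the plus strand for Gadd45g and chr10:99262981-99263230 on the plus strand for Dusp6.
Dusp1: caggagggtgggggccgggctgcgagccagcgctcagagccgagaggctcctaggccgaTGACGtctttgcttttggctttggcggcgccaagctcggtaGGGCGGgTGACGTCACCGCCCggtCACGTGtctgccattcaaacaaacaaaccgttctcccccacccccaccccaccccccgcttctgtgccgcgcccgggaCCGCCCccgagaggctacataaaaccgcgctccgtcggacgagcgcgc
Zfp36: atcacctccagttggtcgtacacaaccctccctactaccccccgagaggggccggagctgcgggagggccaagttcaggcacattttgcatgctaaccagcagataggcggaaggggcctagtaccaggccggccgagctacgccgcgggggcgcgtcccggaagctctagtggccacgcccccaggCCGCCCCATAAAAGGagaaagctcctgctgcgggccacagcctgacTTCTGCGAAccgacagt
Gadd45b: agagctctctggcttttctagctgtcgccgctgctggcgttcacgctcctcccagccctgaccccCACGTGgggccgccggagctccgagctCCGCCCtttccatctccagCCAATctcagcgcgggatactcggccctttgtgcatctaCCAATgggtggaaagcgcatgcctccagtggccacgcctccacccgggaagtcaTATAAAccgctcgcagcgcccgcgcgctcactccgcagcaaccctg
Gadd45g: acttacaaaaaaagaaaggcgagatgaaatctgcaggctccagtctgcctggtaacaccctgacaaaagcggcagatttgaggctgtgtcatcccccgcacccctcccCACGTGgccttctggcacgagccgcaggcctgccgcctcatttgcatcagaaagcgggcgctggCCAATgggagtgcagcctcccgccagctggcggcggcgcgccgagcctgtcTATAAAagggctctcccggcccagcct
Dusp6: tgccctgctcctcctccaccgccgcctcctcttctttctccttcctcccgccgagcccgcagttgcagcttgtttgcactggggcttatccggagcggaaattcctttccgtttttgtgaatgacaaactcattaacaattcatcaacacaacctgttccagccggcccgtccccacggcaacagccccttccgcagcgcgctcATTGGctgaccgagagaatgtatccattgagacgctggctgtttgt

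Motifs were searched on both strands in the same 250 bases of all 7 members and of 32851 annotated promoters. The cyclic AMP response element TGACGTCA lay 143 bases before the start of Dusp1 and in 1.55% of all promoters, and its shorter core TGACG, which overlaps it and also lay 191 bases before the start, was found in Dusp1 as the single member and in 17.8% of all. The E box CACGTG, added after the letters of the members had been read, was present in 4 of 7 (Dusp1, Dusp2, Gadd45b and Gadd45g) and in 6.02% of all promoters. The serum response element was in 1.47% of all promoters and lay 58 bases before the start of Zfp36, where it overlaps the Sp1 box GGGCGG on the other strand. The interferon-γ activated site TTCNNNGAA lay 17 bases before the same start and in 7.02% of all promoters. TATAAA was present in Gadd45b and Gadd45g and in 12.4% of all promoters, CCAAT in 4 of 7 and 33.8%, and GGGCGG in 5 of 7 and 32.7%. Neither the AP-1 element TGANTCA, found in 6.75% of all promoters, nor the NF-kappaB element, found in 7.25%, was in any of the 7 windows. A match describes letters in the window, and no binding was measured.

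**Figure D1:**
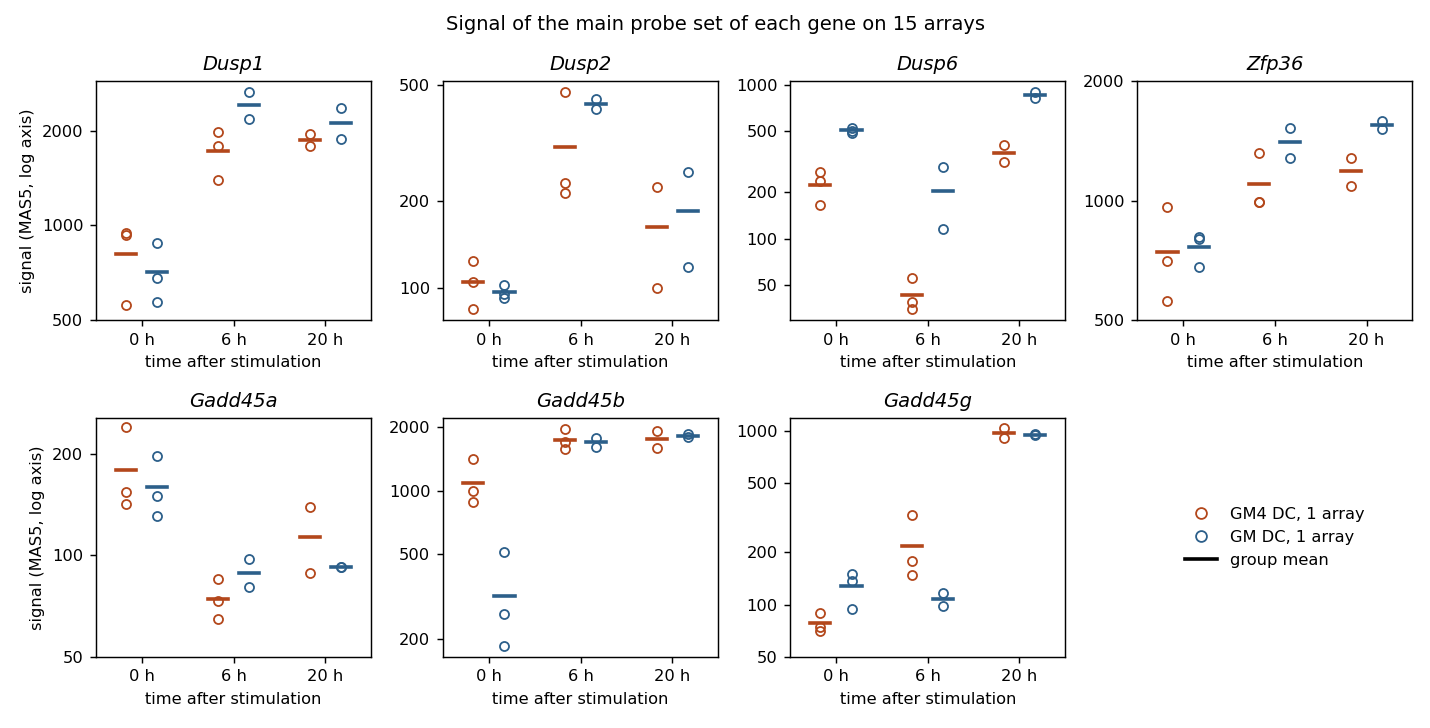
Signal of the main probe set of each gene (y axis, MAS5 signal, logarithmic, with its own range in each panel) at 0, 6 and 20 h after stimulation (x axis). Each circle is 1 array of GM4 DC (orange, left) or GM DC (blue, right), and bars are group means. Dusp6 was lower in GM4 DC at all 3 times, Gadd45b was higher in GM4 DC at 0 h with overlapping groups later, and Gadd45g was at 908 or above on all 4 arrays at 20 h.

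Differences are given as log2 differences of signal + 16 with the standard error from limma (± SE), and folds are on the same scale, which understates changes of low signals. Each difference was tested with limma across all 12422 probe sets and passed at a Benjamini-Hochberg adjusted p under 0.05. The 6 h and 20 h comparisons with 0 h share the 0 h arrays, and so do the comparisons of GM4 with GM DC at 0 h and of their responses. Median shifts over all probe sets were between -0.06 and 0.04 in the 11 comparisons.

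At 6 h most of the 7 genes differed from 0 h in both cultures. In GM4 DC 6 of 7 main probe sets passed at 6 h against 0 h, 4 higher and 2 lower, where 15.9% of all probe sets passed (5.84% higher and 10% lower). GM DC also had 4 higher and 2 lower, where 24.2% of all probe sets passed (8.52% higher and 15.7% lower). The higher genes were Dusp1, Dusp2, Zfp36 and Gadd45g in GM4 DC, and Dusp1, Dusp2, Zfp36 and Gadd45b in GM DC. Dusp6 and Gadd45a were lower in both. The median log2 difference of the 7 genes was 0.69 in GM4 DC and 0.86 in GM DC, against 0.01 and -0.01 over all probe sets. All 7 genes had 6 h groups that did not overlap 0 h in GM4 DC, as had 33.9% of all probe sets, and 6 of 7 in GM DC, as had 44.1%.

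Dusp1 (probe set 104598_at) encodes a nuclear phosphatase that acts chiefly on p38 and JNK and restrains cytokine production in LPS-treated macrophages. Its signal at 0 h was 946, 929 and 560.2 in GM4 DC, against 679, 569.8 and 876 in GM DC. At 6 h it was 1782, 1980 and 1393 in GM4 DC, against 2660 and 2180 in GM DC. At 20 h it was 1784 and 1947 in GM4 DC, against 1880 and 2365 in GM DC. Every stimulated array was above every unstimulated one in both cultures, the 2 cultures overlapped at 0 and 20 h, and the GM DC arrays were the higher ones at 6 h. Dusp1 rose by 6 h in GM4 DC (log2 1.09 ± 0.21, 2.13-fold, limma adjusted p = 0.00284) and in GM DC (log2 1.76 ± 0.24, 3.40-fold, adjusted p = 8.95e-05). It stayed higher at 20 h, by 1.22 ± 0.24 in GM4 DC (adjusted p = 0.00208) and 1.57 ± 0.24 in GM DC (adjusted p = 0.000165). The difference of GM4 from GM DC at 6 h was -0.50 ± 0.24 (95% interval -1.01 to 0.01, limma adjusted p = 0.209), and that between the 6 h responses was -0.67 ± 0.32 (adjusted p = 0.414). Neither passed.

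Dusp2 (92758_at), also called PAC-1, is a nuclear phosphatase of activated leukocytes. It had signals of 105, 84.4 and 124 in GM4 DC at 0 h, against 92.1, 103 and 95.4 in GM DC. GM4 DC reached 474, 229.8 and 213 at 6 h, against 413 and 449.7 in GM DC. At 20 h the arrays gave 100.1 and 223 in GM4 DC, against 118 and 251 in GM DC. All 6 h arrays lay above all 0 h arrays of the same culture, and the pair at 20 h was split in both cultures, with replicate 2 the higher. The 6 h difference was 1.34 ± 0.32 in GM4 DC (2.53-fold, limma adjusted p = 0.0101) and 1.99 ± 0.36 in GM DC (3.97-fold, adjusted p = 0.000894). Between 6 and 20 h Dusp2 fell in GM DC, by a log2 difference of -1.24 ± 0.39 (limma adjusted p = 0.0442). The difference in GM4 DC was -0.86 ± 0.36 (adjusted p = 0.162). Under 5 of 11 other settings of the fit the fall in GM DC did not pass, including the RNA quality ratio as a covariate (adjusted p = 0.0603). The fall in GM DC passed without GM4 DC 6 h replicate 1 or 3, either GM4 DC 20 h array or GM DC 20 h replicate 2, and did not pass without any 1 of the other 10 arrays, where the difference ranged from -1.30 to -0.74, the smallest being without GM DC 20 h replicate 1. At 20 h against 0 h neither culture passed, with 0.48 ± 0.36 in GM4 DC (adjusted p = 0.402) and 0.75 ± 0.36 in GM DC (adjusted p = 0.149), which became 1.25 (adjusted p = 0.0474) without GM DC 20 h replicate 1.

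Dusp6 (93285_at) encodes a cytoplasmic phosphatase selective for ERK, and its transcription depends on ERK activity in many cells. Its signal at 0 h was 165, 270 and 237 in GM4 DC, against 528, 501 and 489 in GM DC. By 6 h it was down to 34.6, 55.2 and 38.8 in GM4 DC, against 294 and 116 in GM DC. By 20 h it was 313 and 405 in GM4 DC, against 819 and 901 in GM DC. The 2 cultures did not overlap at any of the 3 times, and within each culture the 6 h arrays were the lowest. The 2 GM DC arrays at 6 h were far apart, with replicate 1 the higher. Dusp6 fell by 6 h in GM4 DC (log2 -2.02 ± 0.26, 4.05-fold, limma adjusted p = 0.000109) and in GM DC (log2 -1.37 ± 0.29, 2.58-fold, adjusted p = 0.00287). The fall in GM DC was -1.98 without GM DC 6 h replicate 1 and -0.75 without replicate 2 (adjusted p = 0.0484), and with both Dusp6 probe sets averaged it was -0.38 and did not pass (adjusted p = 0.200). Between 6 and 20 h it rose by 2.67 ± 0.29 in GM4 DC (6.38-fold, adjusted p = 6.63e-05) and by 2.11 ± 0.32 in GM DC (4.33-fold, adjusted p = 0.000412). The 20 h signals were above those at 0 h without passing the test, at 0.66 ± 0.29 in GM4 DC (adjusted p = 0.131) and 0.75 ± 0.29 in GM DC (adjusted p = 0.0727). Without either GM DC 6 h array both passed, with the same differences and adjusted p of 0.0329 or less.

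Zfp36 (92830_s_at) encodes tristetraprolin, whose loss in mice gives an inflammatory disease driven by Tnf. The _s_ in the name marks a probe set whose probes can match more than 1 transcript. At 0 h the signal was 704, 559.8 and 961 in GM4 DC, against 809, 681 and 799 in GM DC. It was 1318, 990 and 989 at 6 h in GM4 DC, against 1526 and 1279 in GM DC. It was 1280 and 1089 at 20 h in GM4 DC, against 1512 and 1586 in GM DC. Stimulated arrays were above unstimulated ones in both cultures, narrowly in GM4 DC, and the GM4 DC arrays lay below both GM DC arrays at 20 h. Zfp36 rose by 6 h in GM4 DC (log2 0.58 ± 0.18, 1.49-fold, limma adjusted p = 0.0390) and in GM DC (log2 0.86 ± 0.20, 1.82-fold, adjusted p = 0.00516). At 20 h it was 0.69 ± 0.20 above 0 h in GM4 DC (adjusted p = 0.0227) and 1.01 ± 0.20 in GM DC (2.01-fold, adjusted p = 0.00138). The 6 h call in GM4 DC was lost without any 1 of replicates 1 and 2 of GM4 DC at 0 h and at 6 h or either GM DC 20 h array (0.40 to 0.78 over all single omissions), and that in GM DC without GM DC 6 h replicate 1 (0.74, adjusted p = 0.0704). The 20 h call in GM4 DC was lost without replicate 1 or 2 of GM4 DC at 0 h or at 20 h (0.51 to 0.81). Of 11 other settings, 4 lost the 6 h call in GM4 DC, quantile normalization among them, and 1 lost the 6 h call in GM DC. The 20 h call in GM4 DC was lost under 1 of the 11. GM4 and GM DC differed in Zfp36 by -0.07 ± 0.18 before stimulation (adjusted p = 0.851). They differed by -0.36 ± 0.20 at 6 h (adjusted p = 0.289) and by -0.39 ± 0.22 at 20 h (adjusted p = 0.409). None of these differences passed.

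Gadd45a (102292_at) is a target of the tumour suppressor p53 and is induced by DNA damage in many cell types. In GM4 DC its signal at 0 h was 142, 154 and 239.6, against 149, 131 and 197 in GM DC. In GM4 DC it was 73.2, 64.8 and 85.0 at 6 h, against 80.3 and 97.2 in GM DC. In GM4 DC it was 139 and 88.5 at 20 h, against 92.4 and 92.4 in GM DC. The 6 h arrays lay below the 0 h arrays in both cultures, and GM4 and GM DC overlapped at every time. Gadd45a fell by 6 h in GM4 DC (log2 -1.08 ± 0.21, 2.11-fold, limma adjusted p = 0.00292) and in GM DC (log2 -0.73 ± 0.24, 1.66-fold, adjusted p = 0.0366). The call in GM DC was lost without replicate 1 or 3 of GM DC at 0 h or either GM DC 6 h array (-0.85 to -0.58 over all single omissions). At 20 h Gadd45a was lower than at 0 h in GM DC (-0.67 ± 0.24, adjusted p = 0.0480), a call kept without GM4 DC 0 h replicate 1 or 3, either GM4 DC 20 h array or GM DC 0 h replicate 2 and lost without any 1 of the other 10 arrays (-0.70 to -0.52). Of 11 other settings, 6 also lost this call and 4 lost the 6 h call in GM DC, quantile normalization and median centring among both. In GM4 DC the 20 h difference was -0.58 ± 0.24 (adjusted p = 0.102).

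Gadd45b (161666_f_at) is a target of NF-kappaB in other cells, and it was the member with the largest difference between the unstimulated cultures. The _f_ in the name marks a probe set that can match a family of sequences. It had signals of 993, 882 and 1407 in GM4 DC at 0 h, against 262, 185 and 512 in GM DC. GM4 DC had 1968, 1572 and 1693 at 6 h, against 1769 and 1618 in GM DC. GM4 DC had 1927 and 1593 at 20 h, against 1854 and 1796 in GM DC. All GM4 DC arrays were above all GM DC arrays at 0 h, whereas the cultures overlapped at 6 and 20 h. Gadd45b rose in GM DC by 2.47 ± 0.30 at 6 h (5.53-fold, limma adjusted p = 3.85e-05) and by 2.58 ± 0.30 at 20 h (5.96-fold, adjusted p = 1.75e-05). In GM4 DC the differences were 0.69 ± 0.27 at 6 h (1.61-fold, adjusted p = 0.108) and 0.70 ± 0.30 at 20 h (1.62-fold, adjusted p = 0.123), and neither passed, although no stimulated GM4 DC array was below an unstimulated one. Both passed without GM DC 0 h replicate 3, with the same differences (adjusted p = 0.0164 at 6 h and 0.0218 at 20 h).

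The second Gadd45b probe set, 102779_at, followed the main one over the 15 arrays with a Pearson correlation of 0.975. Its signals at 0 h were 625, 555 and 951 in GM4 DC, against 259, 251 and 468 in GM DC. At 6 h they were 1264, 1093 and 1371 in GM4 DC, against 1065 and 1052 in GM DC. At 20 h they were 1102 and 1001 in GM4 DC, against 949.6 and 1031 in GM DC. GM4 DC was again separate and higher at 0 h, and narrowly separate at 6 h. On this probe set Gadd45b rose by 6 h in both cultures, by 0.83 ± 0.22 in GM4 DC (limma adjusted p = 0.0195) and by 1.71 ± 0.25 in GM DC (3.27-fold, adjusted p = 0.000155). The call in GM4 DC was lost without replicate 1 or 2 of GM4 DC at 0 h or replicate 1 or 3 at 6 h (0.67 to 1.05 over all single omissions). At 20 h against 0 h it was higher in GM DC by 1.61 ± 0.25 (3.06-fold, adjusted p = 0.000181), and in GM4 DC the difference was 0.59 ± 0.25 (adjusted p = 0.110), which passed without GM4 DC 0 h replicate 3 (0.82) or GM DC 0 h replicate 3 (0.59).

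Gadd45g (101979_at) is induced by cytokines in lymphoid and myeloid cells and, with Gadd45b, takes part in p38 activation in T cells. Its signal was 70.5, 74.0 and 89.2 in GM4 DC at 0 h, against 93.9, 137 and 151 in GM DC. At 6 h GM4 DC gave 328, 179 and 148, against 117 and 97.7 in GM DC. At 20 h GM4 DC gave 1040 and 908, against 953 and 942 in GM DC. GM4 DC arrays were the lower ones at 0 h and the higher ones at 6 h without overlap, and at 20 h all 4 arrays were far above every earlier one. Gadd45g had risen by 6 h in GM4 DC (log2 1.25 ± 0.23, 2.38-fold, limma adjusted p = 0.00187), while the difference in GM DC was -0.20 ± 0.26 (95% interval -0.75 to 0.35, adjusted p = 0.656). Between 6 and 20 h it rose by 2.15 ± 0.26 in GM4 DC (4.45-fold, adjusted p = 0.000127) and by 2.97 ± 0.28 in GM DC (7.84-fold, adjusted p = 1.25e-05). Over 20 h the rise was 3.40 ± 0.26 in GM4 DC (10.6-fold, adjusted p = 7.38e-07) and 2.77 ± 0.26 in GM DC (6.83-fold, adjusted p = 2.32e-06).

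**Figure D2:**
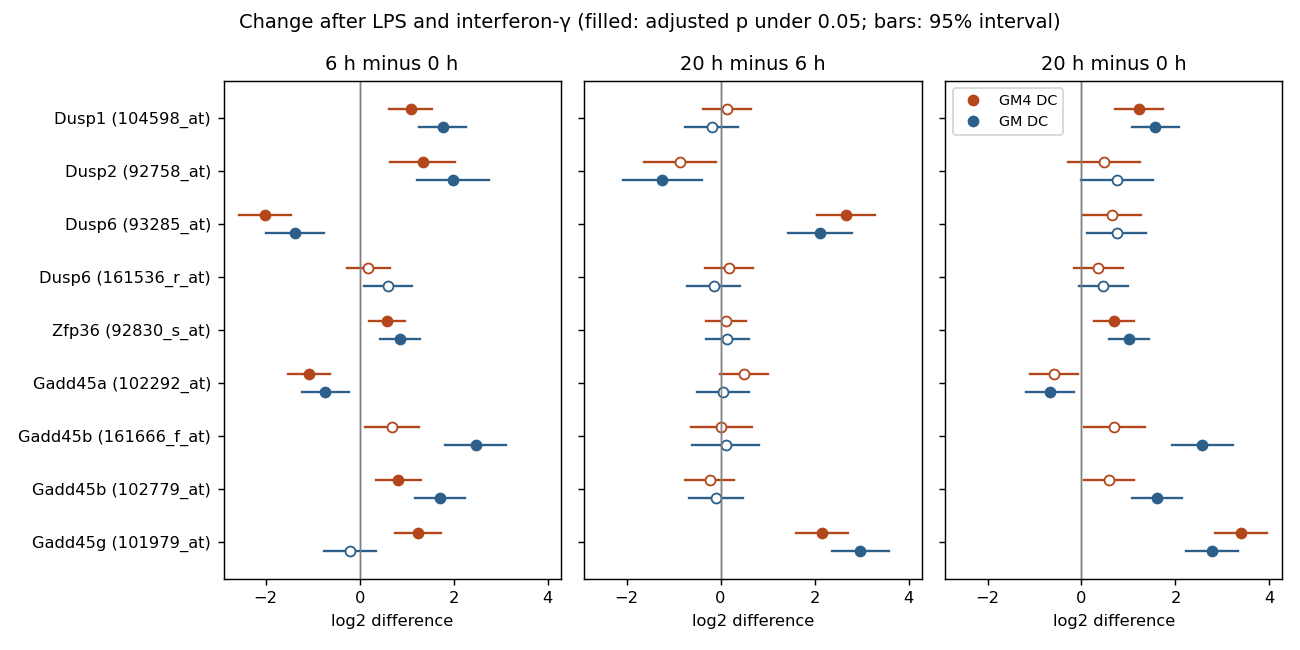
Log2 differences of signal + 16 (x axis) at 6 h against 0 h, 20 h against 6 h and 20 h against 0 h for all 9 probe sets (rows) in GM4 DC (orange, upper) and GM DC (blue, lower). Lines are 95% intervals from limma, and filled points passed at an adjusted p under 0.05. The main Dusp6 probe set (93285_at) lies left of 0 at 6 h and right of 0 from 6 to 20 h in both cultures. The second Dusp6 probe set lies right of 0 at 6 h in both. Gadd45g has its largest differences after 6 h.

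Fewer members passed in the later comparisons. From 6 to 20 h, 2 of 7 genes passed in GM4 DC (Dusp6 and Gadd45g, both higher), where 11.7% of all probe sets passed (5.68% higher and 6.01% lower), and 3 of 7 in GM DC (Dusp6 and Gadd45g higher, Dusp2 lower), where 16.5% passed (8.7% higher and 7.75% lower). At 20 h against 0 h, 3 of 7 passed in GM4 DC (Dusp1, Zfp36 and Gadd45g, all higher), where 21% of all probe sets passed (8.71% higher and 12.3% lower). In GM DC 5 of 7 passed at 20 h against 0 h, Dusp1, Zfp36, Gadd45b and Gadd45g higher and Gadd45a lower, where 27% passed (11% higher and 16% lower). The 20 h and 0 h groups did not overlap for 6 of 7 genes in GM4 DC, and for 49.6% of all probe sets. In GM DC they did not overlap for all 7 genes, and for 48.5% of all probe sets. Neutrophil and granule markers also moved over this interval: of 12 measured, 8 were lower at 20 h than at 0 h in GM4 DC and 7 in GM DC. Their summed signal was 3045 to 3150 at 20 h against 9848 to 15321 at 0 h in GM4 DC, and 3474 to 4608 against 9420 to 9673 in GM DC, and its part in the 20 h results was not tested.

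The 2 cultures differed in Gadd45b and Dusp6 before stimulation. At 0 h 2 of 7 genes passed between GM4 and GM DC, 1 higher and 1 lower, where 14% of all probe sets passed (6.86% higher and 7.12% lower). Gadd45b was higher in GM4 DC, averaging 1094 ± 277 against 320 ± 171 in GM DC (SD, n = 3 arrays each), a log2 difference of 1.82 ± 0.27 (3.52-fold, limma adjusted p = 0.000432). It stayed past the threshold without any 1 array, at 1.51 to 2.20, and was 2.45 with the RNA quality ratio as a covariate (adjusted p = 0.00056). Its second probe set differed by 1.11 ± 0.22 (2.15-fold, adjusted p = 0.00388). Dusp6 was lower in GM4 DC, averaging 224 ± 53.7 against 506 ± 20.2 in GM DC (SD, n = 3 arrays each), a log2 difference of -1.15 ± 0.26 (2.21-fold, adjusted p = 0.00863). With the same covariate the Dusp6 difference was -1.09 and did not pass (adjusted p = 0.115). Gadd45g had -0.59 ± 0.23 (adjusted p = 0.110) without overlap of the groups, which passed without GM4 DC 6 h replicate 1 (-0.59) or GM DC 0 h replicate 1 (-0.77). In all 3 of 7 genes did not overlap at 0 h, as did 31.9% of all probe sets.

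At 6 h 2 of 7 genes passed between GM4 and GM DC, 1 higher and 1 lower, where 11.1% of all probe sets passed (6.39% higher and 4.74% lower). The cultures did not overlap for 3 of 7 genes, and for 40.9% of all probe sets. Dusp6 averaged 42.9 ± 10.9 in GM4 DC (SD, n = 3 arrays) against 205 ± 126 in GM DC (SD, n = 2 arrays), a log2 difference of -1.80 ± 0.29 (3.47-fold, limma adjusted p = 0.00121). Without GM DC 6 h replicate 1 this was -1.18 (adjusted p = 0.0185), without replicate 2 it was -2.41 (adjusted p = 0.000217), and with the RNA quality covariate it was -1.74 (adjusted p = 0.0231). Gadd45g was higher in GM4 DC at 6 h, averaging 218 ± 96.0 (SD, n = 3 arrays) against 107 ± 13.5 in GM DC (SD, n = 2 arrays), by 0.86 ± 0.26 (1.81-fold, adjusted p = 0.0468). The Gadd45g call was kept without GM4 DC 6 h replicate 3 or GM DC 0 h replicate 1 or 3 and lost without any 1 of the other 12 arrays, with differences of 0.54 (without GM4 DC 6 h replicate 1) to 0.97. It was also lost under 7 of 11 other settings, the RNA quality covariate among them (0.99, adjusted p = 0.140). For Gadd45b the 6 h difference was 0.04 ± 0.30 (95% interval -0.61 to 0.68, adjusted p = 0.957), and its second probe set, at 0.22 ± 0.25, passed with that covariate (0.91, adjusted p = 0.0299).

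At 20 h 1 of 7 genes passed between GM4 and GM DC, where 4.7% of all probe sets passed (3.14% higher and 1.56% lower). The cultures did not overlap for 2 of 7 genes, and for 48.1% of all probe sets. Dusp6 was lower in GM4 DC at 20 h, averaging 359 ± 65.0 against 860.2 ± 57.8 in GM DC (SD, n = 2 arrays each), by a log2 difference of -1.24 ± 0.32 (2.35-fold, limma adjusted p = 0.0400). The call was lost without GM4 DC 6 h replicate 3, either GM4 DC 20 h array, GM DC 0 h replicate 2 or either GM DC 20 h array, with differences of -1.41 to -1.06, and with the RNA quality covariate (-1.17, adjusted p = 0.258). Gadd45b and Gadd45g differed by -0.06 ± 0.33 and 0.04 ± 0.28 at 20 h (adjusted p = 0.965 and 0.976). With the RNA quality covariate the Gadd45b difference was 0.69 at 6 h (adjusted p = 0.297) and 0.74 at 20 h (adjusted p = 0.423), and on the second probe set 0.93 at 20 h (adjusted p = 0.0901), none of which passed.

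**Figure D3:**
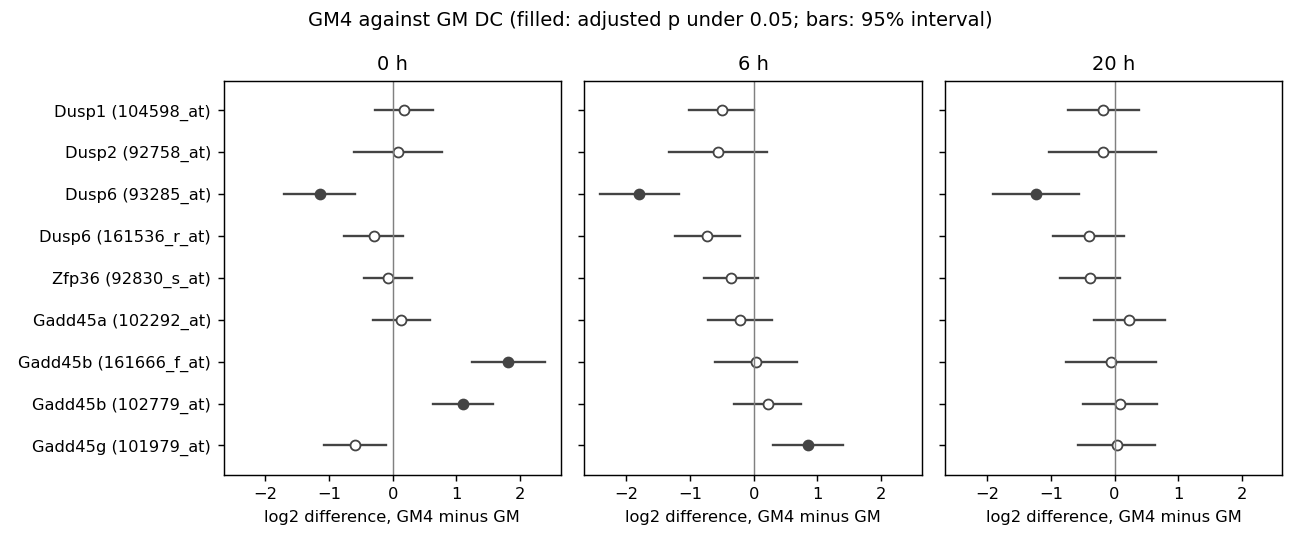
Log2 difference of signal + 16, GM4 minus GM DC (x axis), at 0, 6 and 20 h for all 9 probe sets (rows). Lines are 95% intervals from limma, and filled points passed at an adjusted p under 0.05. Dusp6 (93285_at) lies left of 0 at every time, and both Gadd45b probe sets lie right of 0 at 0 h and near it later.

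Differences between the responses of the cultures were tested directly. For the response from 0 to 6 h, GM4 minus GM DC, 0 of 7 genes passed in limma, where 0.958% of all probe sets passed (0.443% higher and 0.515% lower), and 2 of 7 had an unadjusted p under 0.05. These were Gadd45b, with -1.78 ± 0.40 (limma adjusted p = 0.0529), and Gadd45g, with 1.45 ± 0.34 (adjusted p = 0.0629). Gadd45b passed without GM DC 0 h replicate 3 (-2.17, adjusted p = 0.00206) and Gadd45g without GM4 DC 6 h replicate 1 or 3 or GM DC 0 h replicate 1 (1.13, 1.67 and 1.63). For the response from 0 to 20 h 1 of 7 passed, where 1.26% of all probe sets passed (0.555% higher and 0.708% lower). It was Gadd45b, with -1.88 ± 0.43 (adjusted p = 0.0495). That call was kept without GM DC 0 h replicate 3 (-2.26, adjusted p = 0.00439) and lost without any 1 of the other 14 arrays, where adjusted p reached 0.218. The second Gadd45b probe set gave -0.88 ± 0.33 at 6 h (adjusted p = 0.266) and -1.02 ± 0.35 at 20 h (adjusted p = 0.208), and both passed without GM DC 0 h replicate 3 (-1.16 and -1.30). For Dusp6 the 6 h responses differed by -0.65 ± 0.39 (adjusted p = 0.564), a value set by the pair of GM DC 6 h arrays: it was -0.03 without replicate 1 (adjusted p = 0.993) and -1.27 without replicate 2 (adjusted p = 0.0526). The 20 h responses of Dusp6 differed by -0.09 ± 0.41 (adjusted p = 0.980).

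The order of the 6 groups differed between members. Dusp1 was lowest at 0 h in both cultures, and its 4 stimulated groups each overlapped the next in order. For Dusp2 every group overlapped its neighbour in the order, from GM DC at 0 h (96.7) to GM DC at 6 h (431). Dusp6 ran from GM4 DC at 6 h (42.9), GM DC at 6 h (205), GM4 DC at 0 h (224), GM4 DC at 20 h (359) and GM DC at 0 h (506) to GM DC at 20 h (860.2), and among neighbours only GM DC at 6 h and GM4 DC at 0 h overlapped. Zfp36 split between the 0 h groups and the 4 stimulated groups, within which neighbours overlapped. For Gadd45a all neighbours overlapped, from GM4 DC at 6 h (74.3) to GM4 DC at 0 h (179). Gadd45b had GM DC at 0 h (320) and GM4 DC at 0 h (1094) apart from each other and from the stimulated groups. Gadd45g had GM4 DC at 0 h (77.9) lowest, GM DC at 6 and 0 h and GM4 DC at 6 h overlapping in order above it, and the 20 h groups apart from the rest.

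The second Dusp6 probe set, 161536_r_at, had signals of 4.39 to 20.6 in GM4 DC and 6.07 to 29.1 in GM DC and did not pass in any of the 11 comparisons. Without GM DC 0 h replicate 2 it passed at 6 h and at 20 h against 0 h in GM DC (0.83 and 0.69) and between GM4 and GM DC at 6 h (-0.73). At 6 h against 0 h its difference had the opposite sign to that of the main probe set in both cultures. It was 0.18 ± 0.21 against -2.02 ± 0.26 in GM4 DC and 0.61 ± 0.24 against -1.37 ± 0.29 in GM DC. From 6 to 20 h the signs were also opposite in GM DC (-0.14 ± 0.26 against 2.11 ± 0.32). Its correlation with the main Dusp6 probe set over the 15 arrays was 0.288. The _r_ in its name marks a probe set for which some probe selection rules were dropped. For scale, 29.7% to 35.3% of the probe sets on each array had a signal below 16.

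Genes whose main probe set followed each member most closely over the 15 arrays were taken as the top 2 by Pearson correlation among 5649 genes. They are a description over arrays that share groups and scaling. For Dusp1 they were Acod1 (0.947), which makes itaconate in activated macrophages, and Gbp2b (0.946), an interferon-induced GTPase. For Dusp2 they were Tgif1 (0.912) and Il12b (0.896), the p40 subunit shared by interleukin-12 and interleukin-23. For Dusp6 they were Prune1 (0.964) and Vamp4 (0.964), a vesicle fusion protein. For Zfp36 they were the kinase Ptk2b (0.953) and the metallothionein Mt2 (0.946). Gadd45a was closest to Il6st (0.886), the shared receptor gp130, and Stub1 (0.883), a ubiquitin ligase. Gadd45b was closest to the ubiquitin ligase Rnf19b (0.974) and to Traf1 (0.968), a TNF receptor adaptor. Gadd45g was closest to Bcar1 (0.954), an adhesion docking protein, and P4ha2 (0.951), a collagen prolyl hydroxylase.

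Close relatives of the members gave other patterns. Dusp16 (97740_at), a phosphatase of JNK and p38, rose by 6 h in GM4 DC (0.81 ± 0.15, limma adjusted p = 0.00243) and in GM DC (2.49 ± 0.17, adjusted p = 2.37e-07), and its 6 h response was smaller in GM4 DC (log2 difference -1.67 ± 0.23, adjusted p = 0.00306). It averaged 236 ± 37.9 in GM4 DC against 131 ± 27.2 in GM DC at 0 h, and 424 ± 18.7 against 806 ± 176 at 6 h (SD, n = 3 arrays, or 2 for GM DC at 6 h). GM4 DC was thus higher at 0 h (0.79 ± 0.15, adjusted p = 0.00357) and lower at 6 h (-0.89 ± 0.17, adjusted p = 0.00469), and the 6 h call was lost without GM DC 6 h replicate 1 (-0.67, adjusted p = 0.0857) and with the RNA quality covariate (-0.52, adjusted p = 0.150). A second, dim Dusp16 probe set gave -0.57 ± 0.31 for the difference of the 6 h responses (adjusted p = 0.512).

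Zfp36l1 and Zfp36l2 encode the relatives of tristetraprolin that also bind AU-rich elements. Zfp36l1 averaged 1515 ± 370.3 in GM4 DC against 339 ± 106 in GM DC at 6 h (SD, n = 3 and 2 arrays), a log2 difference of 2.11 ± 0.22 (4.32-fold, limma adjusted p = 7.55e-05). It fell by 6 h in GM DC (-1.68 ± 0.22, adjusted p = 6.52e-05), while the difference in GM4 DC was -0.30 ± 0.20 (adjusted p = 0.378). These 6 h responses of Zfp36l1 differed by 1.38 ± 0.29 (adjusted p = 0.0395), a call kept without GM4 DC 6 h replicate 1 or GM DC 6 h replicate 2 and lost without any 1 of the other 13 arrays (1.07 to 1.48). Zfp36l2 (160273_at) was lower in GM4 DC at 0 h, at 305 ± 55.0 against 1063 ± 287 in GM DC (SD, n = 3 arrays each), a log2 difference of -1.73 ± 0.20 (adjusted p = 7.81e-05). It fell by 6 h, with differences of -1.49 ± 0.20 in GM4 DC and -2.67 ± 0.23 in GM DC, and rose from 6 to 20 h by 1.80 ± 0.23 and 2.17 ± 0.25 in GM4 and GM DC (adjusted p of 0.000198 or less for the 4 differences). The other Zfp36l2 probe sets, 93944_r_at and 93943_f_at, did not pass in any comparison. On 93944_r_at, with group means of 93.7 to 126, the 6 h differences were -0.03 ± 0.21 in GM4 DC and -0.10 ± 0.23 in GM DC. From 6 to 20 h they were 0.05 ± 0.23 in GM4 DC and 0.10 ± 0.26 in GM DC, so it showed neither the fall nor the rise. The group means of 93943_f_at were 1.94 to 2.89.

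**Figure D4:**
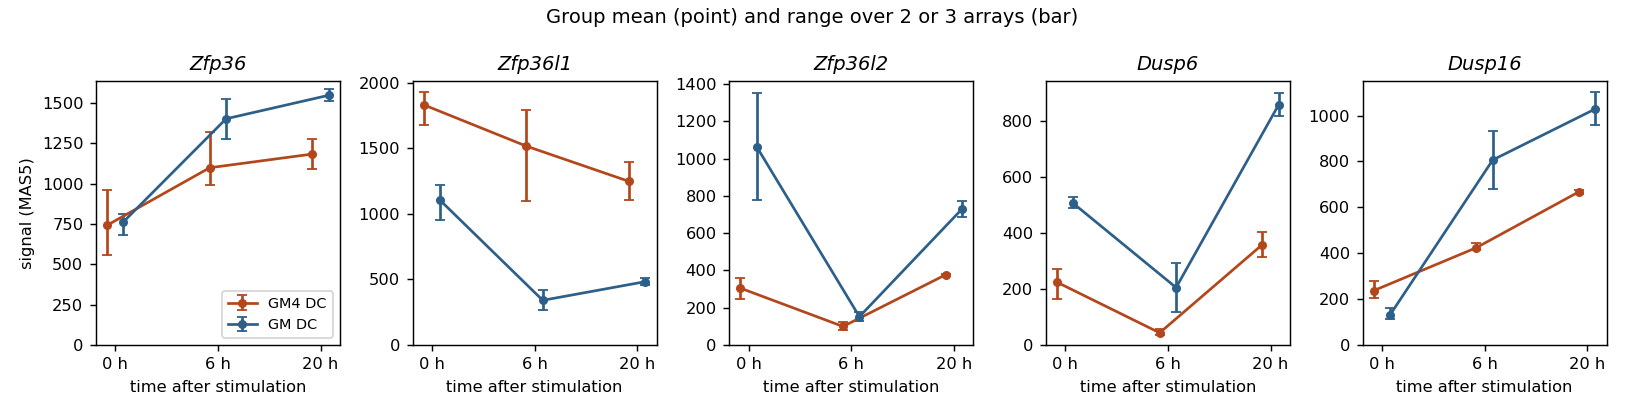
Mean signal (y axis, MAS5 signal, linear from 0) of Zfp36, its relatives Zfp36l1 and Zfp36l2, and the phosphatase genes Dusp6 and Dusp16 at 0, 6 and 20 h (x axis), with bars for the range over the 2 or 3 arrays of each group. Zfp36l1 at 6 h averages 1515 in GM4 DC (orange) and 339 in GM DC (blue). The main probe sets of Dusp6 and Zfp36l2, the ones drawn, are lowest at 6 h in both.

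Genes around the members were counted in 7 lists by the same test at 6 h against 0 h. Over all probe sets 5.84% were higher and 10% lower in GM4 DC, and 8.52% higher and 15.7% lower in GM DC. Of 19 measured transcripts known to be bound by tristetraprolin, 12 were higher in limma and 0 lower in GM4 DC, with 13 at an unadjusted p under 0.05, and 14 were higher and 1 lower in GM DC. Their median log2 difference was 3.18 in GM4 DC and 2.36 in GM DC. Ptgs2, the inducible cyclooxygenase, rose by 5.36 ± 0.29 in GM4 DC and 6.57 ± 0.32 in GM DC, and Il6 by 4.31 ± 0.26 in GM4 DC and 6.83 ± 0.29 in GM DC (adjusted p of 8.92e-08 or less). At 6 h 9 of the 19 were lower in GM4 than in GM DC and 0 higher, with 13 at an unadjusted p under 0.05 in limma, among them Il1b (-2.14 ± 0.28, adjusted p = 0.000336). Before stimulation 7 of the 19 were already lower and 2 higher, and at 20 h 1 was lower and 2 higher. Between the cultures 4.74% of all probe sets were lower and 6.39% higher at 6 h, and 7.12% lower and 6.86% higher at 0 h. Of 24 other feedback inhibitors of inflammatory signalling, 10 were higher and 3 lower at 6 h in GM4 DC, and 15 were higher and 3 lower in GM DC. Socs3, an inhibitor of cytokine receptor signalling, rose by 2.60 ± 0.32 in GM4 DC and 4.01 ± 0.36 in GM DC, and Tnfaip3, the NF-kappaB inhibitor A20, by 1.80 ± 0.30 in GM4 DC and 3.29 ± 0.33 in GM DC. Tnfaip3 and Il6 were already higher in GM4 than in GM DC at 0 h, by log2 differences of 1.58 and 1.78.

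The lists of the kinase pathway had members in both directions. Of 30 measured genes of the MAP kinase cascade, 6 were higher and 4 lower at 6 h in GM4 DC, and 4 were higher and 4 lower in GM DC. Of all probe sets 5.84% were higher and 10% lower in GM4 DC, and 8.52% higher and 15.7% lower in GM DC. Map2k1, which encodes the ERK kinase MEK1, rose in GM4 DC (1.09 ± 0.22, limma adjusted p = 0.00420) and GM DC (1.83 ± 0.25, adjusted p = 0.000104), and Mapk14, which encodes p38α, fell in GM4 DC (-1.27 ± 0.30, adjusted p = 0.00941) and GM DC (-1.64 ± 0.33, adjusted p = 0.00223). Of 11 ERK feedback targets 1 was higher and 4 lower at 6 h in GM4 DC, and 3 were higher and 4 lower in GM DC. The immediate early genes Egr1 and Fos fell in both, Egr1 with -1.49 ± 0.21 in GM4 DC and -1.64 ± 0.23 in GM DC, and Fos with -1.20 ± 0.24 in GM4 DC and -2.56 ± 0.27 in GM DC. Both calls in GM4 DC were lost when the probe sets of each gene were averaged. At 0 h 4 of the 11 were lower in GM4 than in GM DC and 1 higher, with Fos at -2.50 ± 0.24 (adjusted p = 2.04e-05), and at 6 h 5 were lower and 0 higher in limma, with 7 at an unadjusted p under 0.05. Between the cultures 7.12% of all probe sets were lower and 6.86% higher at 0 h, and 4.74% lower and 6.39% higher at 6 h.

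Of 10 other measured MAP kinase and dual specificity phosphatases, 1 was higher (Dusp16) and 1 lower (Dusp19) at 6 h in GM4 DC, and 2 were higher and 1 lower in GM DC. Dusp19 had -0.58 ± 0.15 in GM4 DC (limma adjusted p = 0.0176), lost without GM4 DC 0 h replicate 3 or GM4 DC 6 h replicate 1 or 2 (-0.62 to -0.53 over all single omissions), and -1.25 ± 0.17 in GM DC (adjusted p = 9.95e-05). Of 23 genes of AU-rich element binding and mRNA decay, 1 was higher and 2 lower in GM4 DC, and 2 were higher and 4 lower in GM DC. These counts were near the shares of all probe sets, 5.84% higher and 10% lower in GM4 DC and 8.52% and 15.7% in GM DC. Of 20 stress and p53 targets, 2 were higher and 3 lower in GM4 DC, and 6 were higher and 6 lower in GM DC. Sesn1, a stress-induced inhibitor of growth signalling, fell in GM4 DC (-1.38 ± 0.18, limma adjusted p = 0.000164) and GM DC (-2.04 ± 0.21, adjusted p = 7.45e-06), as did Gadd45a above. The p53-responsive kinase gene Plk2 was higher in GM4 than in GM DC at 0 h (1.89 ± 0.26, adjusted p = 0.000265) and at 6 h (1.80 ± 0.29, adjusted p = 0.00129).

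**Figure D5:**
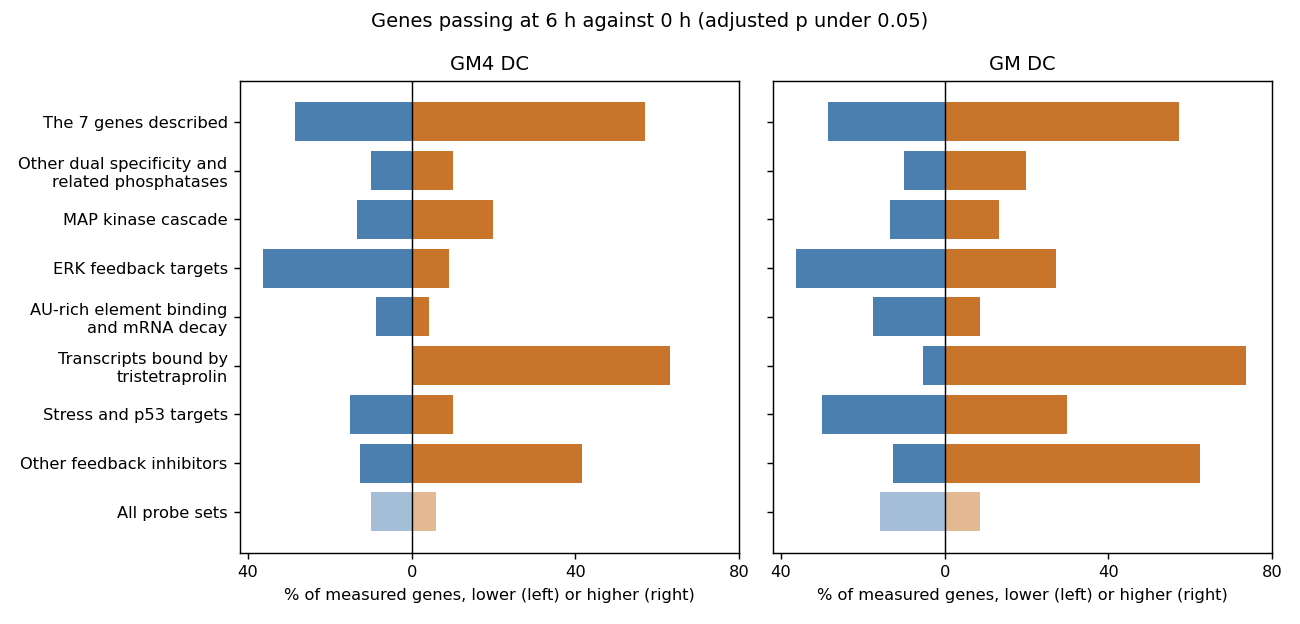
Percentage of measured genes (x axis) that were lower (blue, left) or higher (orange, right) at 6 h than at 0 h at an adjusted p under 0.05, in GM4 DC (left panel) and GM DC (right panel), for the 7 genes, 7 lists of related genes and all probe sets (pale bars). Transcripts bound by tristetraprolin have 12 of 19 higher in GM4 DC and 14 of 19 in GM DC, and the 7 genes have 4 higher and 2 lower in both.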

How the data were processed

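RNA of 15 samples was labelled with biotin and hybridised to 1 Affymetrix mouse array each, per the labels' protocols. The authors deposited 1 intensity per probe set, linear and not logged. MAS5 is named in the submitters' processing notes, with no version in the sources used here. The 2% trimmed mean was 150.1 on every array, so a change in total RNA per cell would not be seen. Precision is limited by the number of arrays, 2 or 3 a group. Detection calls were not used here.

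Arrays were grouped by title into 6 groups. All 12422 probe sets other than the 66 controls entered the test, whatever their signal. The annotation gave a single symbol for 10833 of them. With limma 3.58.1 under R 4.3.3, 6 group means were fitted to log2(signal + 16) of all 15 arrays, with 9 residual and 4.76 prior degrees of freedom. Adjusted p-values (Benjamini-Hochberg, two-sided) were taken over all probe sets in each of 11 contrasts. The fit was run on simulated data with known changes and independent noise on each array. Those data held no linked replicates and no differences in RNA quality, so the run does not bear on either. Per the series design text, the replicates were biological, and not every RNA sample was good enough.

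All 9 member probe sets are named. From each of the 7 lists of related genes, genes past the threshold and among the 3 largest each way could be named, and some of these are. Dusp16, Zfp36l1 and Zfp36l2 were described further as relatives of members, chosen after their values were seen. The members and lists were chosen with earlier results of these data known. Alternatives changed the offset, scaling, filter, trend, probe set rule, arrays in the fit and covariates, and left out each array.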

Additional observations from a re-analysis of the deposited data

Results flagged for a closer look

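The response of Gadd45b (161666_f_at) from 0 to 20 h differed between the cultures by a test of the difference itself. It was smaller in GM4 than in GM DC by a log2 difference of -1.88 ± 0.43 (limma adjusted p = 0.0495). The 2 cultures were apart at 0 h, at 882 to 1407 in GM4 DC against 185 to 512 in GM DC, and overlapped at 20 h, at 1593 to 1927 in GM4 DC against 1796 to 1854 in GM DC. The second probe set gave -1.02 ± 0.35 (adjusted p = 0.208). GM DC 0 h replicate 3 had both the highest Gadd45b signal of its group and the highest Gapdh 3′ to 5′ ratio, 2.46, and without it the difference was -2.26 (adjusted p = 0.00439). Without any 1 of the other 14 arrays the call was lost, with adjusted p up to 0.218, as it was under 5 of 11 other settings. With the RNA quality ratio as a covariate it was -1.70 (adjusted p = 0.0333).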

How the results depend on the processing

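Over 26 alternative settings the 9 probe sets gave 2541 recomputed differences. Of these 2380 kept their side of the threshold, 109 lost it and 52 gained it. Among differences past the threshold in either fit, 0 changed direction. The 2380 include differences past it in neither fit that changed sign. Gadd45a between the cultures at 6 h was such a case, at -0.215, and 0.175 with the RNA quality covariate. Of 35 differences past the threshold, 23 stayed past it under every setting run for them. At 0 h the count of the 7 genes passing between GM4 and GM DC was 2, and 1 with the RNA quality covariate. At 6 h it was 2, and 1 with an offset of 64, quantile normalization, no intensity trend, the covariate, only the groups compared, or without both GM DC 0 h replicate 3 and GM DC 6 h replicate 1, a setting chosen after seeing the data. At 20 h it was 1, and 0 without the trend, with the covariate or with the mean of all probe sets. At 20 h against 0 h in GM4 DC it was 3, and 5 without both arrays. For the 6 h response it was 0, but 2 with an offset of 1 or the filter at the 40th percentile and 1 with median centring, the covariate or without both arrays. For the 20 h response it was 1, and 0 with an offset of 64, quantile normalization, no trend, the mean of all probe sets or only the groups compared. The cause of these changes was not tested. The second Dusp6 probe set, dim on all arrays, was the one most limited by signal over background.

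Without 1 array at a time these counts ranged from 2 to 3 at 0 h, 1 to 2 at 6 h and 0 to 1 at 20 h between the cultures, from 5 to 7 and from 4 to 6 at 6 h against 0 h in GM4 and GM DC, from 2 to 2 and from 2 to 3 at 20 h against 6 h, from 2 to 4 and from 4 to 5 at 20 h against 0 h, and from 0 to 1 for both responses. Over all probe sets the number passing between the cultures was 1736 at 0 h (964 with the covariate, 1143 with only the groups compared, 1114 to 1743 without 1 array). It was 1383 at 6 h (794, 723 and 604 to 1464 in the same order, and 678 without both arrays) and 584 at 20 h (335 with the covariate, 146 to 650 without 1 array). It was 3012 at 6 h against 0 h in GM DC (1943 with only the groups compared, 1958 without both arrays, 1929 to 3024 without 1 array). At 20 h against 6 h it was 1452 in GM4 DC (566 to 1515 without 1 array) and 2044 in GM DC (1198 with only the groups compared, 1242 to 2148 without 1 array), and at 20 h against 0 h 2606 in GM4 DC (1392 to 2711). For the 6 h response it was 119 (213 with the filter, 70 with only the groups compared, 54 to 298 without 1 array), and for the 20 h response 157 (15 to 168 without 1 array).

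Same-numbered replicates deviated together in part: 19 of 33 pairs had a correlation over 0.1, and 14 of 15 arrays matched an array of their own number best. Deviations were taken from group means, so in a group of 2 arrays they mirror each other. These counts are therefore not of independent pairs or arrays, and they are a hint from the data and not from the design. With the replicate number as a block, the count at 6 h between the cultures was 1 and that for the 6 h response was 1 (Gadd45b, -1.97, adjusted p = 0.00587), and 3 differences lost and 7 gained the threshold. In GM4 DC the Gadd45b differences from 0 h then passed at 6 h (0.69, adjusted p = 0.0260) and at 20 h (0.89, adjusted p = 0.0123), as did the second probe set at 20 h (0.79, adjusted p = 0.00199) and in both responses (-1.08 and -1.02). Over all probe sets the block gave 206 for the 6 h response and 260 for the 20 h response.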
